A study of Mus musculus with 2 samples.

Results

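The miR-221 and miR-222 cluster is a pair of neighbouring microRNA (miRNA) genes on the mouse X chromosome. It was represented on the array by 4 names, 1 for each arm of the 2 hairpins: mmu-miR-221-3p, mmu-miR-221-5p, mmu-miR-222-3p and mmu-miR-222-5p. The 4 were chosen by name, and all 4 were present among the 1080 miRNA names of both arrays. Of the 1080, 1023 were mouse names and the rest viral. The study compared bone marrow cells of C57BL/6 mice cultured for 4 days with GM-CSF + IL-6, at 40 ng/ml of each factor, with the same cells cultured with GM-CSF ONLY at 40 ng/ml. Both cultures had 5% serum, and both were described as myeloid-derived suppressor cells, a name for immature myeloid cells able to hold back T cells. GM-CSF is a growth factor of myeloid cells and IL-6 an inflammatory cytokine. Each culture had 1 single-colour Agilent miRNA array, so no test between the cultures was possible, and the errors below come from replicate spots within an array. The sex, age and number of the animals, and whether marrow was pooled, are not stated in the labels used here.

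Both hairpins are cut from a shared primary transcript, and the 3p arm is the one usually loaded into the silencing complex. In human erythroid progenitors these miRNAs repress KIT, the receptor for stem cell factor, and in several human tumour lines they repress CDKN1B, an inhibitor of the cell cycle. In macrophages of mouse and human they have been linked to tolerance to bacterial lipopolysaccharide, through the chromatin remodeller subunit Brg1.

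The sequences of the mature arms are shown because the first bases set which messages an arm can pair with. RefSeq (GRCm38.p6) held 3 of the 4 names, and bases 2 to 8, the seed, are in capitals. They lie on the minus strand at chrX:19146307-19146329 for miR-221-3p, chrX:19146344-19146369 for miR-221-5p and chrX:19146901-19146923 for miR-222-3p.
mmu-miR-221-3p: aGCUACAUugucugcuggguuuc
mmu-miR-222-3p: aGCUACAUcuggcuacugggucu
mmu-miR-221-5p: aCCUGGCAuacaauguagauuucugu
The 2 3p arms share their first 8 bases and therefore their seed, GCUACAU, whose complement in a target message is AUGUAGC. Set side by side without gaps, they are equal at 3 of 15 positions beyond base 8, and at 11 of 23 over the whole length. Both also hold the run cugggu beyond the seed, at places offset from each other, so these counts understate their likeness. The seed of miR-221-5p, CCUGGCA, is a different one. Among 1679 mature mouse names in RefSeq, 3 carry the seed of the 3p arms, the third being mmu-miR-1928, from the minus strand of chr1:74206562-74206578.
mmu-miR-1928: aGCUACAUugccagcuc

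The hairpins are shown to place the arms. That of Mir221 spans 95 bases at chrX:19146294-19146388 and that of Mir222 spans 79 bases at chrX:19146893-19146971, both on the minus strand with 504 bases between them. Capitals mark the mature arms that RefSeq annotates.
Mir221: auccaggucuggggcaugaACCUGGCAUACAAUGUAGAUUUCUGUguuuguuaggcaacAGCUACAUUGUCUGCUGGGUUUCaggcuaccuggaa
Mir222: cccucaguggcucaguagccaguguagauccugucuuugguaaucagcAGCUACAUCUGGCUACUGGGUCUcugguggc

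The question put to the arrays was whether adding IL-6 to GM-CSF went with a different level of these miRNAs. Both 3p arms were detected in both cultures at nearly the same level, and both 5p arms were detected in neither. Relative to all names detected on both arrays, viral ones included, miR-221-3p was 1.02-fold and miR-222-3p 1.08-fold lower with GM-CSF + IL-6. Neither came near a 1.5-fold difference. Fewer cells that hold a miRNA and less of it per cell cannot be told apart in RNA from a whole culture.

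The level of a name was the sum of the deposited total signals of its probes, in scanner units after background subtraction. For mmu-miR-221-3p it was 36.3 in the GM-CSF + IL-6 culture and 38.9 in the GM-CSF ONLY culture. For mmu-miR-222-3p it was 39.9 in the GM-CSF + IL-6 culture and 45.1 in the GM-CSF ONLY culture. Both 3p arms thus had the lower raw signal on the GM-CSF + IL-6 array. The difference, GM-CSF + IL-6 minus GM-CSF ONLY, was -2.57 for miR-221-3p, against a combined deposited error of 5.08. For miR-222-3p it was -5.21 against 5.50, so in both names the raw difference was smaller than the error the scanner software assigned to it.

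The names detected on both arrays numbered 292, of which 282 were mouse names. The 75th percentile over the 292 names was 160 units on the GM-CSF + IL-6 array, against 182 on the GM-CSF ONLY array. The median signal of the same names was 39.1 units with GM-CSF + IL-6 and 38.5 units with GM-CSF ONLY, and their median log2 ratio before scaling was -0.064. After each array was divided by that percentile, the log2 ratio of GM-CSF + IL-6 over GM-CSF ONLY was 0.085 for miR-221-3p and 0.0062 for miR-222-3p. The median of all 292 names was 0.12 on this scale. Because other scalings move that median by more than 0.1, ratios are given from here on relative to it, as relative log2 ratios, which scaling by any single factor leaves as they are.

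The relative log2 ratio of miR-221-3p was -0.034 ± 0.034 (standard error over spots), with a 95% interval from spot error of -0.10 to 0.032. That interval includes 0, so the name was not distinguishable from the median miRNA by spot error alone. The relative log2 ratio of miR-222-3p was -0.11 ± 0.038 (standard error over spots), with an interval of -0.19 to -0.038, below 0. These intervals hold no spread between cultures, which 1 array each cannot give. The 2 ratios, which share both arrays, differed by -0.079 ± 0.051 (miR-222-3p minus miR-221-3p, spot standard error), with an interval of -0.18 to 0.021 that includes 0.

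Of the 2 arms detected on both arrays, 0 were at least 1.5-fold apart between the cultures. Among all 292 names the count was 10, or 3.42%, and all 10 were higher with GM-CSF + IL-6. In the ordering of all 292 names by relative log2 ratio, 121 names (41.4%) lay below miR-221-3p and 61 names (20.9%) below miR-222-3p. The 25th and 75th percentiles of all names were -0.095 and 0.16, so miR-221-3p lay between them and miR-222-3p just below the lower one.

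**Figure D1:**
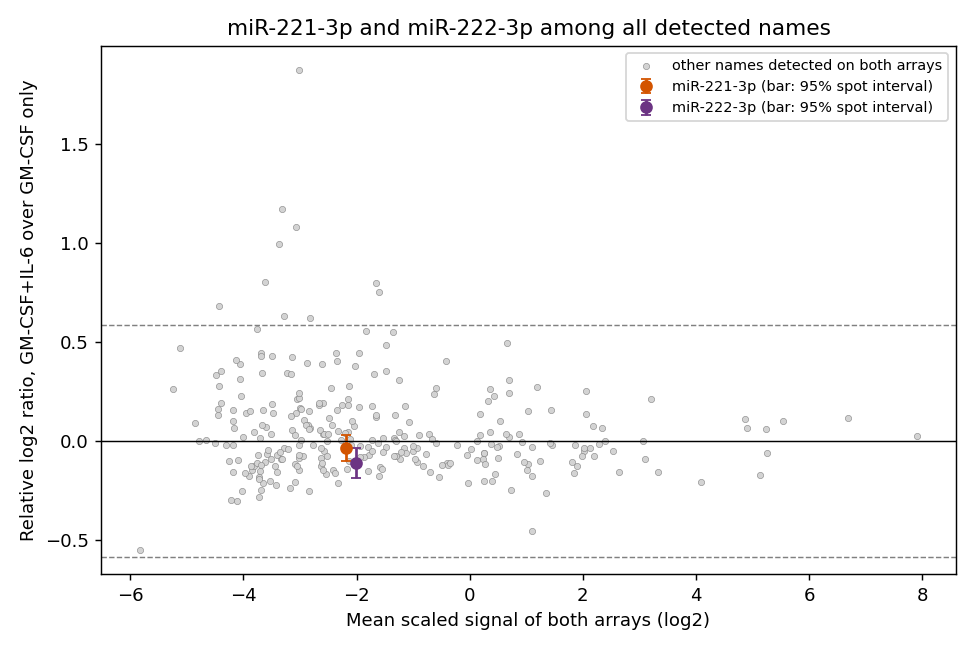
Relative log2 ratio (GM-CSF + IL-6 over GM-CSF ONLY, vertical axis) against the mean scaled log2 signal of both arrays (horizontal axis) for the 292 names detected on both arrays, with miR-221-3p and miR-222-3p coloured and their bars the 95% interval from spot error. Dashed lines mark 1.5-fold, and the 2 arms lie at -0.034 and -0.11, well between them.

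Each 3p arm was read by 2 probes with 20 spots each, and every one of these 40 spots per name was well above background on both arrays. On probe A_54_P2640 of miR-221-3p the spots ran from 27.9 to 47.8 with a median of 38.6 in GM-CSF + IL-6, and from 32.5 to 47.3 with a median of 41.0 in GM-CSF ONLY. On its other probe, A_54_P3830, they ran from 43.8 to 71.3 with a median of 58.5 in GM-CSF + IL-6, and from 45.6 to 73.3 with a median of 58.1 in GM-CSF ONLY. The cultures overlapped almost entirely on both probes: 36 of the 40 spots with GM-CSF + IL-6 fell within the range of the same probe's spots with GM-CSF ONLY. With the median log2 ratio of the 292 names taken out, 19 of the 40 spots were higher with GM-CSF + IL-6 than the spot at the same place on the other array. The relative log2 ratio was -0.048 on A_54_P2640 and -0.024 on A_54_P3830.

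For miR-222-3p the spots of probe A_54_P2643 ran from 33.8 to 52.5 with a median of 41.3 in GM-CSF + IL-6, and from 29.3 to 55.7 with a median of 45.3 in GM-CSF ONLY. Those of probe A_54_P2644 ran from 50.3 to 78.0 with a median of 62.1 in GM-CSF + IL-6, and from 56.4 to 82.1 with a median of 72.1 in GM-CSF ONLY. Both medians were lower with GM-CSF + IL-6, yet 38 of the 40 spots with GM-CSF + IL-6 fell within the range of the same probe with GM-CSF ONLY. After the same median was taken out, 16 of the 40 spots were higher with GM-CSF + IL-6. The relative log2 ratio was -0.077 on A_54_P2643 and -0.14 on A_54_P2644, so all 4 probes of the 3p arms had values below 0.

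**Figure D2:**
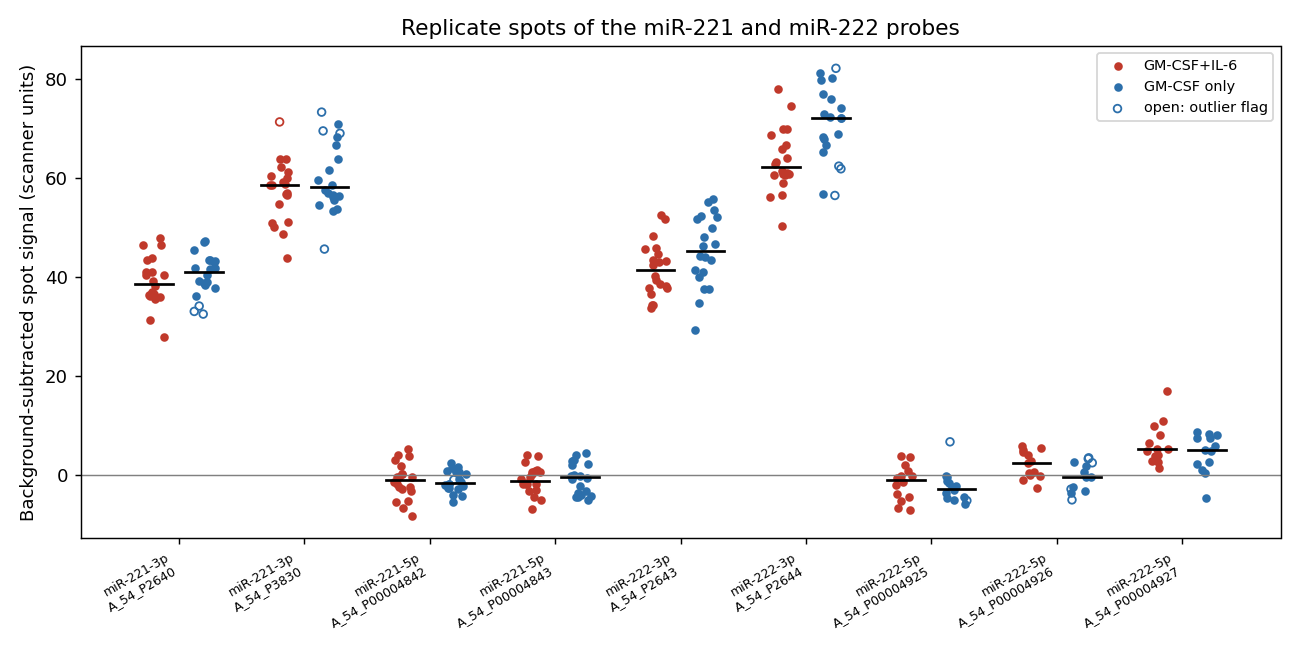
Background-subtracted signal in scanner units (vertical axis, not scaled between arrays) of every replicate spot of the 9 probes of the 4 names (horizontal axis), GM-CSF + IL-6 in red and GM-CSF ONLY in blue, with black bars at the median of each probe's spots and open circles for spots with the software's outlier flag. On each 3p probe the spots of the 2 cultures overlap. The 5p spots lie near 0, apart from those of A_54_P00004927 of miR-222-5p, whose median was 5.29 units with GM-CSF + IL-6, against 5.15 units with GM-CSF ONLY.

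The 5p arms, the partner strands that are usually degraded, gave no detectable signal. For mmu-miR-221-5p the summed signal was -0.79 ± 2.35 in GM-CSF + IL-6, against -0.78 ± 2.35 in GM-CSF ONLY (deposited errors). For mmu-miR-222-5p it was 1.67 ± 1.93 in GM-CSF + IL-6 and 0.18 ± 1.92 in GM-CSF ONLY. On each array, 0 of the 40 spots of each 5p arm were well above background, so no ratio is given for them.

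The scanner software's detection flag coincided, for all 1080 names on each array, with at least 1 probe whose total exceeded 3 times its deposited error. The probe totals of the 3p arms stood at 6.64 to 8.21 times their errors with GM-CSF + IL-6 and at 6.94 to 8.56 times with GM-CSF ONLY. Those of miR-221-5p were below 0 in both cultures. Among the 3 probes of miR-222-5p the highest was A_54_P00004927, at 1.42 times its error with GM-CSF + IL-6 and 1.02 times with GM-CSF ONLY. The 13 spots of that probe had medians of 5.29 and 5.15 units, in the same order, and 0 of 13 against 1 of 13 lay below 0. This probe gave a weak positive reading in both cultures that stayed under the detection limit, while the other 2 probes of the name had totals between -0.67 and 0.48 times their errors.

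**Figure D3:**
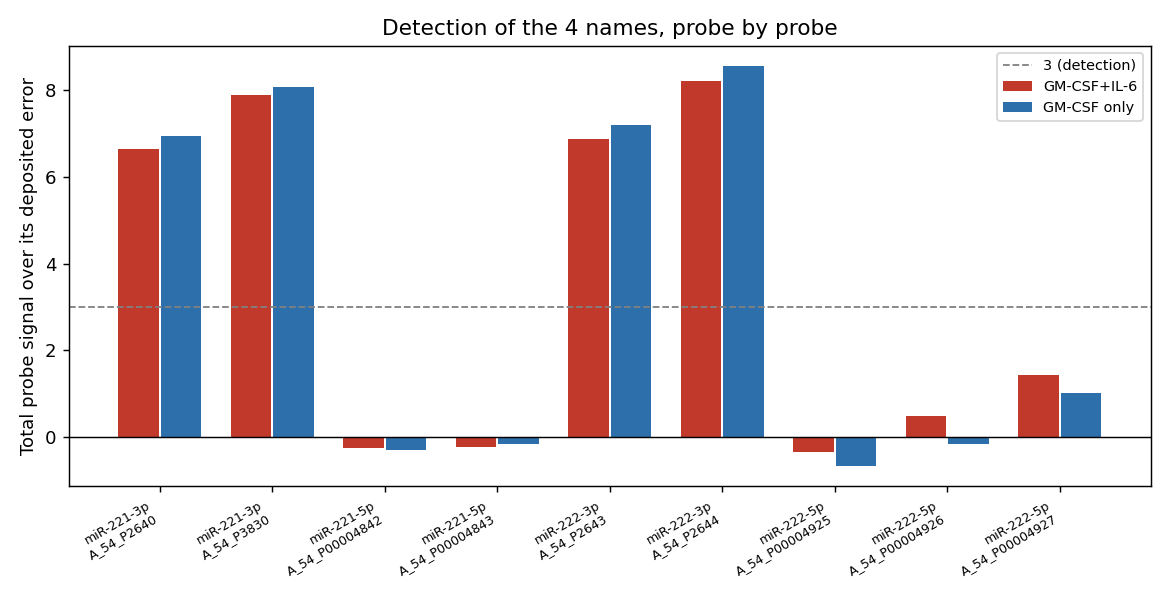
Total probe signal divided by its deposited error (vertical axis) for each of the 9 probes of the 4 names (horizontal axis), GM-CSF + IL-6 in red beside GM-CSF ONLY in blue, with the dashed line at 3, above which the software calls a name detected. Every 3p probe lies between 6.64 and 8.56, and every 5p probe between -0.67 and 1.42.

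Detection on both arrays was met by 292 of 1080 names on the array, or 27%, and by 2 of the 4 names of the cluster. Mouse hairpin names with both arms on the array numbered 381. The 3p arm alone was detected on both arrays for 63 of them, or 16.5%, among them both hairpins of the cluster. By the same rule the 5p arm alone was detected for 77, both arms for 27 and neither arm for the other 214. An arm not detected on both arrays counted as undetected here. The pattern of the cluster, a detected 3p arm beside an undetected 5p arm, was therefore shared with many other hairpins.

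The third name with the same seed, mmu-miR-1928, was detected in neither culture. Its summed signal was -0.77 ± 2.35 in GM-CSF + IL-6 and -0.78 ± 2.35 in GM-CSF ONLY (deposited errors). Of its 40 spots, 1 was well above background with GM-CSF + IL-6 and 0 with GM-CSF ONLY. Of the 3 names with this seed, miR-221-3p and miR-222-3p were thus the 2 with a detected signal. Probe sequences were not used here, and how much the probes of one 3p arm take up of the other was not tested.

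With 2 arrays, likeness of pattern rests on a single ratio. Among the 99 mouse names detected on both arrays with a signal within 2-fold of miR-221-3p on each, the 3 with the nearest ratio were miR-671-5p, miR-1839-3p and miR-1198-5p, with relative log2 ratios of -0.035, -0.033 and -0.031. Among the 87 such names for miR-222-3p they were miR-532-5p at -0.11, miR-362-3p at -0.099 and miR-3092-3p at -0.13. Many names had ratios this close, and the likeness covers no more than these 2 arrays.

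Other miRNAs from the X chromosome, at any distance from the cluster, were set beside it. By exact name, 794 of 1023 mouse names matched a RefSeq mature miRNA, and 114 names outside the cluster were placed on the X chromosome alone. Of these, 20 were detected on both arrays, with a median relative log2 ratio of -0.042. Of the 20, 7 lay above the median of all names and 13 below. As in the cluster, 0 were 1.5-fold apart, beside 10 (3.42%) of all 292 names, so the 0 does not set them apart. The exact match missed partner arms of hairpins on this list. Among those detected on both arrays were miR-504-3p, past 1.5-fold at 1.08, and miR-532-5p and miR-421-3p, each at -0.11. The brightest of the 20 were miR-223-3p, a granulocyte miRNA, at -0.061, and miR-672-5p at 0.31. The widest difference among the 20 was that of miR-532-3p, -0.55 ± 0.33 (spot standard error), on signals of 2.43 in GM-CSF + IL-6 and 3.73 in GM-CSF ONLY.

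Transcription of the cluster has been linked to NF-kB and AP-1 in human tumour cells, and a list of miRNAs of the inflammatory response was read beside it. The list held both arms of miR-155 and of miR-21, and miR-146a-5p, miR-146b-5p, miR-132-3p, miR-212-3p, miR-9-5p, miR-125b-5p and miR-147-3p. Of these 11 names, both arrays detected 7 and neither array the other 4. Of the 7, 0 were 1.5-fold apart, beside 10 (3.42%) of the 292 names, so the 0 does not set the list apart. The median relative log2 ratio of the 7 was -0.12, with 2 above the median of all names and 5 below. The value was -0.17 for miR-21-5p and -0.25 for miR-155-5p, which had the largest difference of the list, at signals of 254 in GM-CSF + IL-6, against 315 in GM-CSF ONLY. Above the median of all names were miR-21-3p at 0.16 and miR-132-3p at 0.029, a pair chosen for naming once the values had been seen.

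The names listed as myeloid, miR-223-3p and both arms of miR-142, were detected in both cultures, 3 of 3. Their signals summed to 7899 in GM-CSF + IL-6 and 8535 in GM-CSF ONLY, and their median relative log2 ratio was 0.0020. Outside this list, miR-223-5p and both arms of miR-511, also linked to myeloid cells, were detected in neither culture. Smooth muscle, endothelial and stromal cells are also known to express miR-221 and miR-222. All 5 stromal names (miR-199a-3p, miR-199a-5p, miR-214-3p, miR-143-3p and miR-145-5p) were undetected on both arrays, with signals of at most 0.64 in GM-CSF + IL-6 and 0.34 in GM-CSF ONLY. Their partner arms outside the list differed from this. Both arrays detected miR-214-5p, about as bright as the 3p arms of the cluster. Detection of miR-143-5p was limited to the GM-CSF + IL-6 array, and neither array detected miR-145-3p. Of the 2 megakaryocyte and endothelial names, miR-126-3p was detected at 11.0 in GM-CSF + IL-6 and 12.8 in GM-CSF ONLY, a relative log2 ratio of -0.15, and miR-126-5p was not. Of 2 erythroid names on the array, miR-451 was detected, at 8.10 in GM-CSF + IL-6 and 10.4 in GM-CSF ONLY (-0.30), and miR-144-3p was not. Both lymphoid names were detected, miR-150-5p at 54.2 in GM-CSF + IL-6 and 62.6 in GM-CSF ONLY (-0.14), and miR-181a-5p at 28.3 and 31.3 in the same order (-0.078). All 4 detected names on these lists of other cell types thus had values below 0, as both 3p arms of the cluster did. Values are relative to the median of all names, so as many names lie below 0 as above it. The direction shared by the 4 also depended on the names listed. Outside the lists, miR-214-5p and miR-181b-5p lay above 0, while miR-181c-5p and miR-181d-5p lay below 0. Whether any of these names had a part in the values of miR-221-3p and miR-222-3p was not tested.

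Under 15 other ways of processing, the relative log2 ratio of miR-222-3p ran from -0.16 to -0.032 and was below 0 in all 15. That of miR-221-3p ran from -0.10 to 0.033 and was below 0 in 14 and above 0 in 1, the odd-numbered spots alone. In 0 of the 15 did either name reach 1.5-fold.

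**Figure D4:**
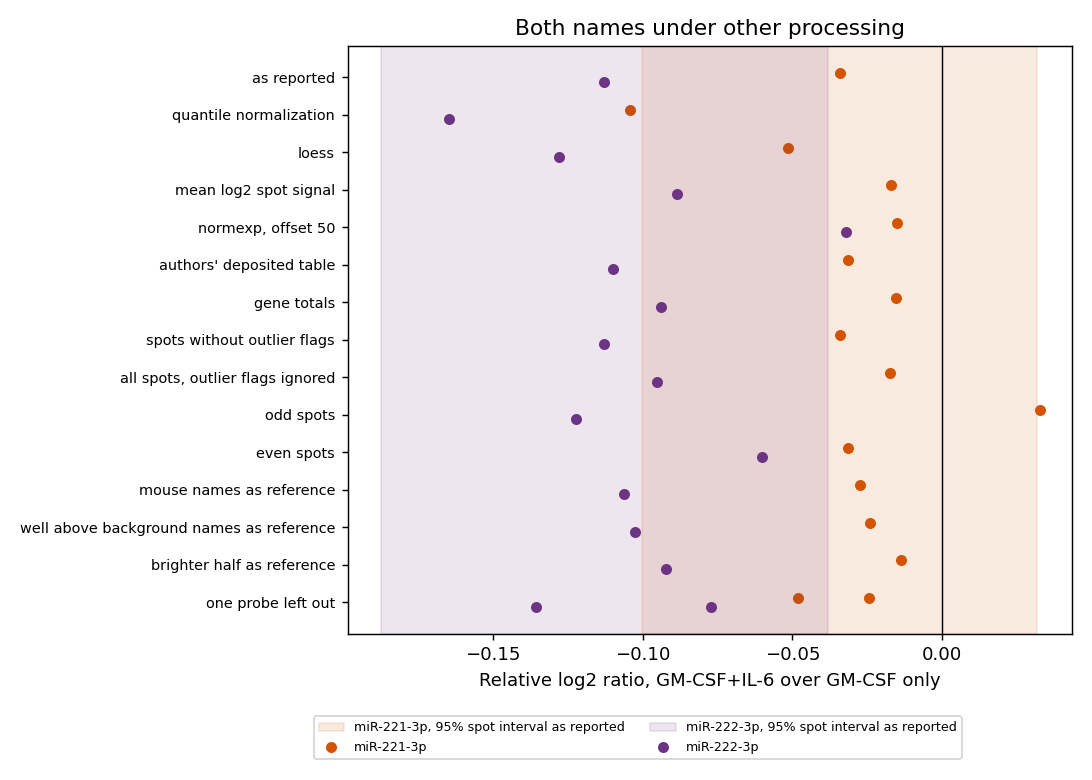
Relative log2 ratio (GM-CSF + IL-6 over GM-CSF ONLY, horizontal axis) of miR-221-3p and miR-222-3p as reported and under each alternative (vertical axis), with shaded bands for the 95% interval from spot error around the reported values. The values of miR-222-3p lie between -0.16 and -0.032, and those of miR-221-3p between -0.10 and 0.033.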

How the data were processed

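RNA from 1 culture per condition was labelled with Cy3 (0.2 ug) and hybridised to a single-colour array. The linear amplification kit named in the labels is one for mRNA, and the labels do not say if these arrays were made with it. Per the file headers, the deposited intensity values came from Agilent Feature Extraction 10.7.1.1, background-subtracted and with no scaling between arrays. There were 0 saturated spots, and the median variation among replicate spots was 8.18% with GM-CSF + IL-6 and 7.42% with GM-CSF ONLY. The 2 arrays shared a slide and a scan. The log2 values of the authors' deposited table have an unstated centring (column medians -9.60 and -9.60, the floor for undetected names), and it served as an alternative.

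Levels were sums of deposited probe totals. Scaling used the 75th percentile of each array over the 292 names detected on both, and the median log2 ratio of these names was subtracted. Spot errors came from spots without outlier flags. With 1 array per condition no test was run, and a 1.5-fold limit took its place. The members and lists were chosen with earlier results of these data known. All 4 members were named, with every mouse name sharing a seed, the 3 names most like each detected member, and the 2 brightest and the most different name of the X chromosome and inflammatory response lists. Names given from outside the lists were picked after the values had been seen. Alternatives were quantile and loess (span 0.7) scaling, mean log2 spot signals (floor 1), normexp (offset 50), the authors' table, gene totals, subsets of spots and probes, and other reference names. Using all spots regardless of outlier flags was added after seeing the data. The functions were tested on simulated data. Python 3.11.15, numpy 2.4.6, pandas 2.3.3, matplotlib 3.10.9, R 4.3.3 and limma 3.58.1 were used.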

Additional observations from a re-analysis of the deposited data

How the results depend on the processing

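For miR-221-3p the relative log2 ratio of -0.034 became -0.10 under quantile normalization and 0.033 on odd spots alone. For miR-222-3p the value of -0.11 became -0.032 after normexp, whose offset draws ratios toward 0 by construction. How much of this move came from the offset was not tested. Every other alternative for these 2 values stayed within the 95% spot interval. Before the median of all names was subtracted, the log2 ratios of 0.085 and 0.0062 (miR-221-3p and miR-222-3p) were -0.18 and -0.26 after scaling by the 75th percentile over all names, -0.12 and -0.20 after scaling by the median, and -0.098 and -0.18 without scaling, so their sign rests on the scaling. The number of members 1.5-fold apart was 0 at every fold limit, and the number detected was 2 under a stricter detection rule by spots well above background. No paired analysis was possible because each culture has 1 array. The number of arrays limits the precision, and signals of the 5p arms near 0 allow no ratio.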

Other observations

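Spots with the scanner software's outlier flag were unevenly spread over the cluster. For miR-221-3p they numbered 1 of 40 with GM-CSF + IL-6 and 7 of 40 with GM-CSF ONLY, and for miR-222-3p 0 of 40 and 4 of 40 in the same order. Over all miRNA spots the shares were 3.76% with GM-CSF + IL-6 and 4.27% with GM-CSF ONLY. Of the flagged spots with GM-CSF ONLY, 4 of the 7 of miR-221-3p and 3 of the 4 of miR-222-3p were dimmer than the median of their probe's other spots. The deposited totals leave flagged spots out. With them included, the relative log2 ratios were -0.017 for miR-221-3p and -0.095 for miR-222-3p, close to the reported values.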
